A study of Rattus norvegicus with 24 samples.

Results

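The 7 genes described here encode the enzymes that start fructose breakdown and those of the polyol pathway: Khk, Tkfc, Glyctk, Akr1b1, Akr1b8, Akr1b10 and Sord. They were found by gene name in a table of read counts for 34523 genes, where 6 of the 7 have a row and all 6 were among the 14770 genes tested. Akr1b10 has no row under that name, so no level is given for it. The table covers rat pulmonary microvascular endothelial cells (PMVECs), a line from the smallest vessels of the lung, either wild-type (WT) or knockout (KO) for Pfkfb3. Pfkfb3 encodes an enzyme that makes an activator of glycolytic phosphofructokinase. Cells of each genotype spent 24 h with one sugar at 25 mM, glucose or fructose, and under one oxygen condition, normoxia or hypoxia. This gives 8 groups of 3 libraries: WT normoxia glucose, WT normoxia fructose, WT hypoxia glucose, WT hypoxia fructose, and the same 4 media for KO. The oxygen level, the altered part of Pfkfb3, whether the KO line is 1 clone, and whether the samples of a group were separate cultures are not stated in the labels. If they were not separate cultures, p-values measure only the spread between these samples. If each genotype is 1 line, loss of Pfkfb3 and any other difference between the lines cannot be told apart. Each group had one sugar or the other and no group had neither, so a gain with one sugar and a loss with the other cannot be told apart.

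In the fructose route, transporters such as that encoded by Slc2a5 bring the sugar into the cell, ketohexokinase (Khk) phosphorylates it, and the product is split. Triose kinase (Tkfc) then phosphorylates the glyceraldehyde that is released, and glycerate kinase (Glyctk) takes up glycerate made from it. In the polyol pathway, aldose reductase (Akr1b1) reduces glucose to sorbitol and sorbitol dehydrogenase (Sord) oxidises sorbitol to fructose, so that glucose can become fructose inside a cell. Akr1b8 and Akr1b10 are close relatives of aldose reductase, and their mouse and human counterparts are known to reduce reactive aldehydes and retinal.

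Library totals lay between 14344010 and 23028807 counts. Levels below are counts scaled to a TMM-adjusted library total (CPM). Differences are log2 values from edgeR's quasi-likelihood test, ± an SE derived from its F statistic. They were called at a Benjamini-Hochberg adjusted p under 0.05 over all genes tested. Pfkfb3 itself, the gene named in the genotype labels, lay at 55.5 to 174 CPM in the 12 WT libraries and 31.4 to 63.3 in the 12 KO libraries. It was lower in KO in all 4 media, by log2 values of -0.59 and -0.56 with glucose (normoxia, then hypoxia) and -1.77 and -1.50 with fructose, and no library of KO reached a WT library of the same medium. Its RNA was still present in every KO library, and 3495 to 4252 genes were called lower in KO in each medium. Lower Pfkfb3 RNA therefore does not by itself establish the knockout. Of 8 endothelial markers, 7 have a row. Cdh5 and Kdr, which encode VE-cadherin and a VEGF receptor, stayed under 1 CPM in every library, so these defining markers of the labelled cell type were at or near 0. Flt1, another VEGF receptor gene, was detected throughout (32.5 to 95.3 CPM in WT and 113 to 207 in KO), as was Vwf, von Willebrand factor (6.55 to 13.9 and 53.1 to 64.0). The summed level of the 7 was 44.0 to 104 CPM in WT and 175 to 271 in KO. Flt1, Vwf and Tie1 were called higher in KO in all 4 media, and Tek lower with glucose (-2.74 and -2.81, adjusted p = 0.0176 and 0.0188). Tie1 was low in WT (0.0540 to 0.697 CPM, against 0.928 to 4.16 in KO). Erg was low in both genotypes and overlapped between them (0.0498 to 1.06 CPM in WT and 0.174 to 1.04 in KO). Summed fibroblast markers (3 genes, Pdgfra under 1 CPM throughout) lay at 5162 to 17099 CPM in WT and 1790 to 3363 in KO, and epithelial markers (3 genes) at 662 to 1139 and 1531 to 2914. Of 3 leukocyte markers, Itgb2 lay at 0.502 to 2.44 CPM in WT and 74.3 to 169.7 in KO, Cd68 overlapped between the genotypes (0.426 to 1.37 and 0.428 to 1.42) and was not called, and Ptprc stayed under 1 CPM throughout. The hepatocyte markers Alb and Apoa1 together did not exceed 0.689 CPM in any library. Flt1, Vwf, Tie1, fibroblast and epithelial markers and Itgb2 thus differ with genotype beside every KO against WT value below. Some also differ with sugar: with fructose, Col1a1 (-0.87 and -1.13, normoxia then hypoxia) and Col3a1 (-2.58 and -3.40) were lower in WT and Cdh1 higher (1.42 and 0.88), while Flt1 (-0.70), Vwf (-0.64) and Epcam (-1.30) were lower in WT hypoxia, Tie1 higher in WT normoxia (1.73) and Col1a1 lower in KO hypoxia (-0.44). Their part in the values below was not tested. In bulk RNA, fewer cells with a transcript and less of it per cell cannot be told apart.

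The polyol genes were far more abundant than the fructose route genes. Per kilobase of gene model, over 24 libraries, Akr1b1 had a median of 343 CPM per kilobase, Akr1b8 104, Sord 102, Tkfc 23.1, Glyctk 3.05 and Khk 0.427. The range of Akr1b1, 198 to 536 CPM per kilobase, lay above the whole range of Sord (75.7 to 193). Khk ran from 0.144 to 0.948 CPM per kilobase, below the lowest Glyctk value of 2.11. The plot of levels by library shows each gene on its own scale.

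**Figure D1:**
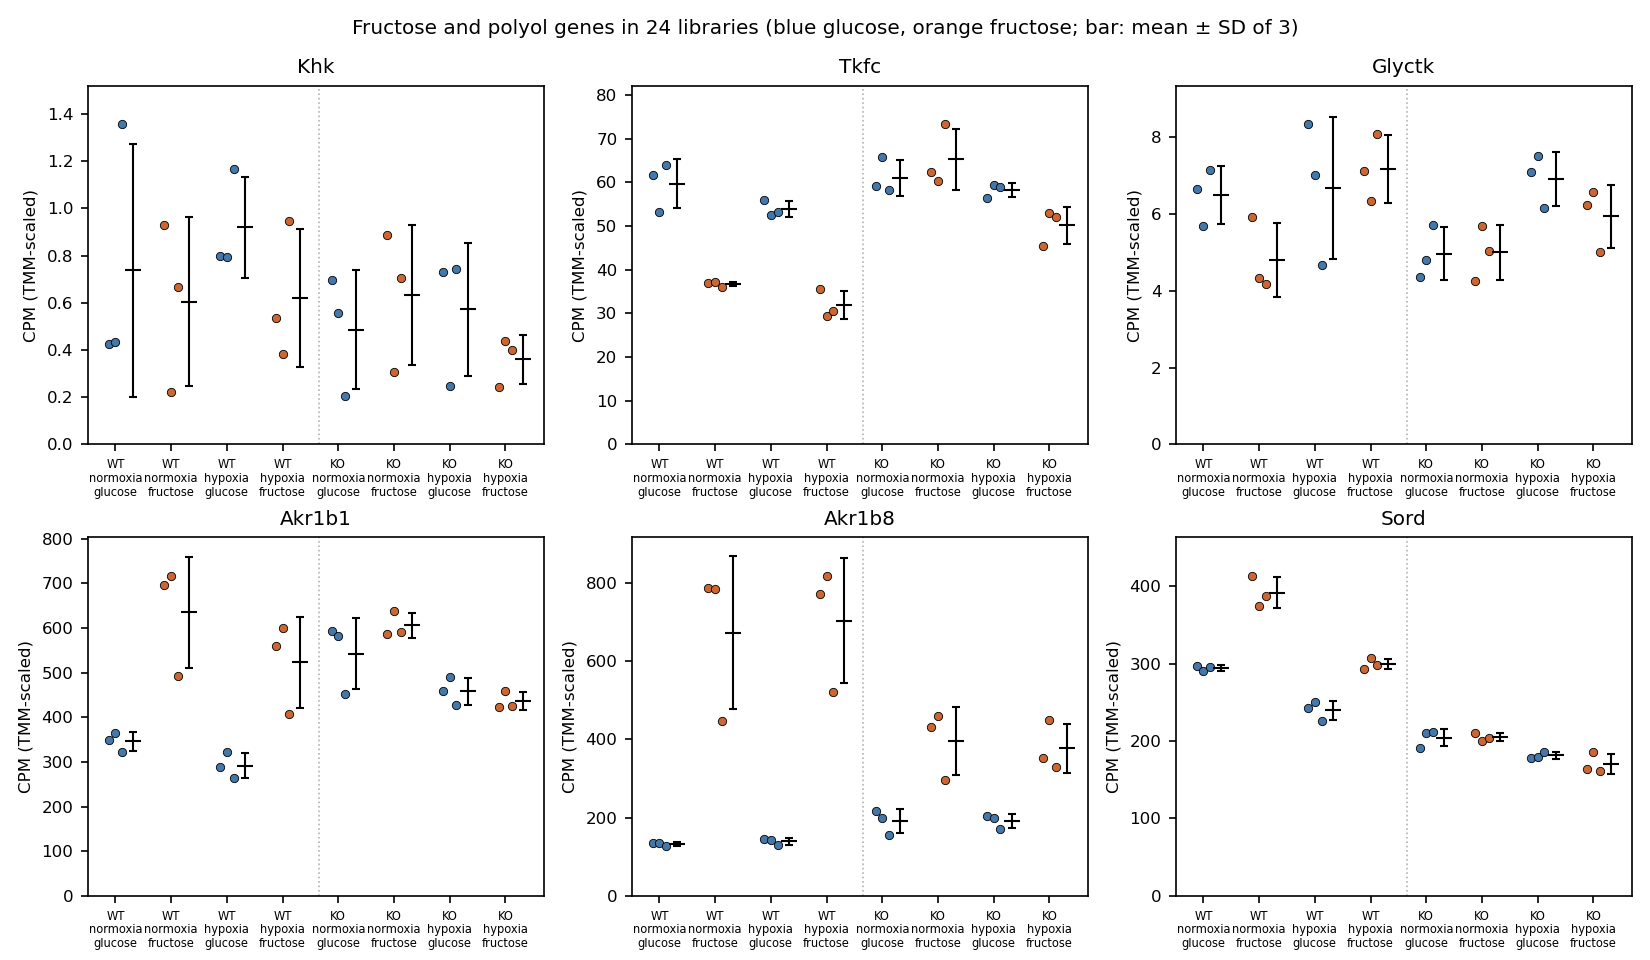
Level of each of the 6 genes with a row, in CPM of the TMM-scaled library total (linear axes from 0), in the 24 libraries of 8 groups. Points are libraries, blue for glucose and orange for fructose, and bars give the mean ± SD of the 3 libraries of a group. Akr1b8 reaches 447 to 818 CPM in the WT fructose libraries and 127 to 145 in the WT glucose libraries, and Sord lies below every WT library in all 12 KO libraries.

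Akr1b1 (ENSRNOG00000009513) lies at chr4:61706864-61720956 on the minus strand of Rnor_6.0, and Akr1b8 (ENSRNOG00000009734) at chr4:61771970-61828657 on the plus strand. In the RefSeq order of GRCr8, Akr1b10 stands between Akr1b8 and Akr1b7, while in the deposited table Akr1b7 follows Akr1b8 and the Akr1b8 model spans 56688 bases with 2472 bases of exon. Reads from Akr1b10 therefore cannot be told apart from those of Akr1b8 here, and each Akr1b8 value below carries that limit. Whether the 2472 bases include exons of Akr1b10 is not known. Akr1b8 values per kilobase, above and in the ratios below, are therefore uncertain in length too. Akr1b7 itself had 0 counts in 17 of 24 libraries and at most 6. Sord (ENSRNOG00000017291) lies at chr3:114176309-114207366 on the plus strand, Tkfc (ENSRNOG00000020704) at chr1:226644200-226657408, Glyctk (ENSRNOG00000046307) at chr8:114848084-114853103 and Khk (ENSRNOG00000008047) at chr6:26810579-26820959, all 3 on the minus strand.

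The 250 bases before the transcription start are shown for Akr1b8 and Sord, which were higher with fructose in WT, and for Tkfc, which was lower. They come from RefSeq on GRCr8, 5′ to 3′ along the gene, at chr4:63964171-63964420 (plus) for Akr1b8, chr3:129638418-129638667 (plus) for Sord and chr1:216677658-216677907 (minus) for Tkfc. Of the 7 genes, 6 matched an entry, Akr1b1 being the exception. Capitals mark a match to a motif searched.
Akr1b8: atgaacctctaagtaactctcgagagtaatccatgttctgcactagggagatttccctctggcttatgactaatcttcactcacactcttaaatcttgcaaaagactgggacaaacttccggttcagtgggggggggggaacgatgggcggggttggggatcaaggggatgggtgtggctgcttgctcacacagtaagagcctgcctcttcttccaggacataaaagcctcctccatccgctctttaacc
Sord: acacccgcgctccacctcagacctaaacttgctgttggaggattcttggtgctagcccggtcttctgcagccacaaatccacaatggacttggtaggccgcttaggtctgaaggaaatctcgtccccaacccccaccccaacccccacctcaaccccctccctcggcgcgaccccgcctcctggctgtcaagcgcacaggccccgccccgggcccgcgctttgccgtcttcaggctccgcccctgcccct
Tkfc: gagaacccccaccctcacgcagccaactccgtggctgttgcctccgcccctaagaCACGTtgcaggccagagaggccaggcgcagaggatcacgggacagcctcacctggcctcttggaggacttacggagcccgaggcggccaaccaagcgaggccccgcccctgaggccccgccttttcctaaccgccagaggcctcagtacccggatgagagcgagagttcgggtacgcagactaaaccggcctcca
Both strands were searched for TGACNNNGC (the antioxidant response element), TGANTCA (AP-1), TGGAAA (the core of the tonicity element), CACGTG (an E-box) and ACGTG (the core of the hypoxia response element, which every CACGTG also holds). Among 33469 rat windows of 250 bases, these were found in 10.1%, 6.34%, 19.7%, 5.59% and 16.6%. The Tkfc window holds 1 match, the letters CACGT, which are ACGTG on the other strand, beginning 195 bases before the start. The Akr1b8 and Sord windows hold none of these letters, nor do those of Glyctk and Akr1b10, and the Khk window holds 1 match to TGACNNNGC.

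With fructose in place of glucose, WT cells had about 5 times as much Akr1b8 RNA and more Akr1b1 and Sord RNA, and less Tkfc RNA, in both oxygen conditions. In normoxia 4 of 6 genes were called, beside 37.9% of all genes tested, and in hypoxia 4 of 6, beside 45.5%. The median log2 difference of the 6 genes was 0.06 in normoxia and 0.21 in hypoxia, against 0.02 and 0.01 over all genes tested. In KO cells 1 of 6 was called in each oxygen condition, beside 1.79% of all genes in normoxia and 5.42% in hypoxia, and it was Akr1b8 both times. The medians there were 0.13 and -0.15, against 0.00 for all genes in each.

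Akr1b8 stood at 136, 134 and 127 CPM in the WT normoxia glucose libraries and at 786, 785 and 447 in WT normoxia fructose. In WT hypoxia it was 145, 144 and 130.1 CPM with glucose and 771, 818 and 521 with fructose. The groups did not overlap, and sample 3 was the lowest fructose library in both conditions, as it was the lowest for Akr1b8 in all 8 groups. The normoxia difference was 2.35 ± 0.22, or 5.09-fold (adjusted p = 1.54e-07), and the hypoxia difference 2.33 ± 0.22, or 5.04-fold (adjusted p = 1.02e-07).

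In KO the step of Akr1b8 between sugars was smaller. The glucose libraries held 218, 198 and 157 CPM in normoxia and 205, 199 and 170.4 in hypoxia, and the fructose libraries 430.5, 461 and 297 in normoxia and 354, 449 and 329 in hypoxia. Groups again did not overlap within an oxygen condition. The differences were 1.05 ± 0.21 (adjusted p = 0.0128) and 0.98 ± 0.21 (adjusted p = 0.0101), 2.08-fold and 1.97-fold. Both calls were close to the limit. In normoxia the adjusted p was 0.0514 without KO normoxia glucose 2, 0.0899 without KO normoxia glucose 3, 0.0629 without KO normoxia fructose 1, 0.073 without KO normoxia fructose 2, and 0.118 in a fit of the 6 libraries alone. In hypoxia it was 0.0551 without KO hypoxia glucose 3 and 0.0512 without KO hypoxia fructose 2.

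Akr1b1, aldose reductase, rose with fructose in WT. Its levels in WT normoxia were 349.8, 365 and 323 CPM with glucose and 696, 717 and 492 with fructose. WT hypoxia gave 289, 322 and 264 CPM with glucose and 559.8, 601 and 408 with fructose. The 3 fructose libraries lay above the 3 glucose libraries each time, by 0.87 ± 0.14 (adjusted p = 2.12e-05) and 0.84 ± 0.14 (adjusted p = 2.45e-05). In KO normoxia the 3 glucose libraries (594, 582 and 452 CPM) and the 3 fructose libraries (587, 639 and 592 CPM) overlapped, with a difference of 0.16 ± 0.13 (adjusted p = 0.726). KO hypoxia libraries, at 458, 489 and 428 CPM with glucose and 423, 459 and 426 with fructose, also overlapped, with a difference of -0.07 ± 0.13 (adjusted p = 0.859).

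A processed pseudogene, Akr1b1-ps2 at chr4:148951616-148952561 on the minus strand, was counted at 0.0208 to 0.0365 of the Akr1b1 level per kilobase in the 24 libraries. Its range of ratios in WT (0.0208 to 0.0365) and in KO (0.0247 to 0.0360) overlapped. How reads shared by the gene and this copy were counted is not known, so Akr1b1 levels are uncertain, and the size of any effect on them was not tested.

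Sord, which turns sorbitol into fructose, varied little between libraries of a group. In WT normoxia its libraries held 297, 290.5 and 295 CPM with glucose and 413, 374 and 387 with fructose. In WT hypoxia they held 243, 250.5 and 226 CPM with glucose and 294, 307 and 298 with fructose. Fructose libraries were higher without overlap, by 0.41 ± 0.06 (adjusted p = 1.38e-05) and 0.32 ± 0.06 (adjusted p = 0.000221). KO libraries with glucose and fructose overlapped in both oxygen conditions, with differences of 0.00 ± 0.06 (adjusted p = 1) and -0.09 ± 0.06 (adjusted p = 0.526).

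Tkfc moved the other way in WT. It was at 61.7, 53.3 and 64.0 CPM with glucose and 36.9, 37.1 and 36.1 with fructose in normoxia. Hypoxia gave 56.0, 52.5 and 53.3 CPM with glucose and 35.5, 29.5 and 30.6 with fructose. No fructose library reached a glucose library, and Tkfc fell by 0.70 ± 0.09 (adjusted p = 9.32e-07) and by 0.76 ± 0.09 (adjusted p = 2.08e-07) on the log2 scale. KO normoxia libraries held 59.1, 65.7 and 58.2 CPM with glucose and 62.3, 60.2 and 73.2 with fructose, which overlap, and the difference was 0.10 ± 0.09 (adjusted p = 0.743). In KO hypoxia the levels were 56.3, 59.3 and 58.9 CPM with glucose and 45.3, 53.1 and 52.0 with fructose. Those groups did not overlap, but the difference of -0.21 ± 0.09 was not called (adjusted p = 0.182).

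Neither low-level gene was called between the sugars. Glyctk lay between 4.17 and 8.33 CPM in all 24 libraries (69 to 152 counts), with differences of -0.43 and 0.11 in WT (normoxia, then hypoxia) and 0.01 and -0.22 in KO (adjusted p = 0.101, 0.698, 1 and 0.648). Without WT normoxia fructose 1, its difference in WT normoxia was -0.61 with an adjusted p of 0.0418. Khk had 4 to 26 counts in a library, 0.206 to 1.36 CPM, and its differences were -0.29, -0.57, 0.40 and -0.64, each with an SE of 0.57 to 0.62 (adjusted p = 0.736, 0.447, 0.886 and 0.676). The 95% interval of the Khk difference in WT normoxia ran from -1.50 to 0.91.

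**Figure D2:**
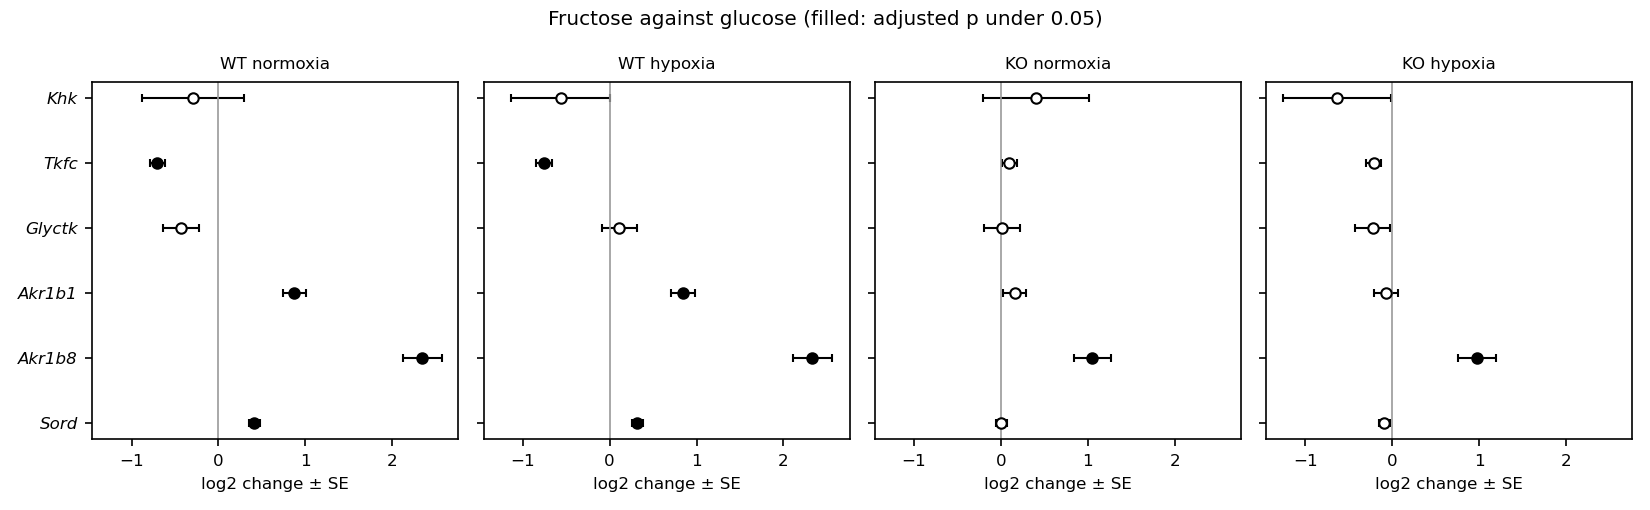
Log2 difference of fructose against glucose, ± SE derived from the edgeR test, for 6 genes in WT and KO cells in each oxygen condition, each from 3 libraries a group. Filled points passed an adjusted p of 0.05. Akr1b8 is filled in all 4 panels, with 2.35 and 2.33 in WT and 1.05 and 0.98 in KO, while Akr1b1, Sord and Tkfc are filled in the WT panels.

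The sugar response differed between the genotypes for 4 of 6 genes in normoxia, beside 19.1% of all genes tested, and for 4 of 6 in hypoxia, beside 25.6%. These were Akr1b8, Akr1b1, Sord and Tkfc in each condition. The KO response minus the WT response for Akr1b8 was -1.29 ± 0.30 in normoxia and -1.36 ± 0.30 in hypoxia (adjusted p = 0.00519 and 0.00264). For Akr1b1 it was -0.72 ± 0.19 (adjusted p = 0.00997) and -0.91 ± 0.19 (adjusted p = 0.00108). Sord gave -0.41 ± 0.09 in both conditions (adjusted p = 0.0021 and 0.00153). Tkfc had the opposite sign, 0.80 ± 0.13 (adjusted p = 5.92e-05) and 0.55 ± 0.13 (adjusted p = 0.00222). For Glyctk (0.44 ± 0.29 and -0.33 ± 0.28) and Khk (0.69 ± 0.85 and -0.07 ± 0.81) no difference was called.

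Set against WT in the same medium, KO cells had less Sord in all 4 media, more Akr1b1 with glucose, less Akr1b8 with fructose and more Tkfc with fructose. With glucose 2 of 6 were called in normoxia, beside 46.4% of all genes, and 2 of 6 in hypoxia, beside 48.4%. With fructose 3 of 6 were called in normoxia, beside 53.6%, and 3 of 6 in hypoxia, beside 54.5%. These shares are near or below those of all genes. The medians of the 6 genes were -0.18 and 0.08 with glucose and -0.01 and -0.52 with fructose, against 0.02, 0.01, -0.03 and -0.03 for all genes tested. The comparisons share their libraries with the sugar comparisons above.

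Sord was 191, 210.5 and 211 CPM in KO normoxia glucose, 210.5, 200.1 and 204 in KO normoxia fructose, 178, 180.0 and 186 in KO hypoxia glucose and 164, 186 and 162 in KO hypoxia fructose. Every WT library, at 226 to 413 CPM, lay above every KO library. In the order just given, the differences were -0.52, -0.93, -0.40 and -0.81, each ± 0.06 (adjusted p = 3.33e-07, 1.46e-11, 1.50e-05 and 1.53e-10). The 50 tested genes nearest to Sord on chromosome 3 had median differences of -0.26, -0.45, -0.26 and -0.33. With the neighbours' median taken out, the hypoxia glucose difference was -0.14 and no longer called (adjusted p = 0.0881).

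Akr1b1 was higher in KO with glucose, by 0.65 ± 0.14 in normoxia (adjusted p = 0.000441) and 0.65 ± 0.14 in hypoxia (adjusted p = 0.000412), with no overlap of the libraries listed above. With fructose the genotypes overlapped, at -0.07 ± 0.13 (adjusted p = 0.699) and -0.26 ± 0.13 (adjusted p = 0.106). Without WT hypoxia fructose 3, the lowest of its group, the latter was -0.41 with an adjusted p of 0.00986. Median differences of the 50 neighbours on chromosome 4 lay between -0.22 and -0.16.

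Akr1b8 was lower in KO with fructose, by -0.76 ± 0.21 in normoxia (adjusted p = 0.00545), where the ranges 297 to 461 and 447 to 786 CPM overlapped, and by -0.90 ± 0.21 in hypoxia (adjusted p = 0.00154), where they did not. In a fit of the 6 libraries alone, the normoxia value was -0.75 with an adjusted p of 0.0845. With glucose all 3 KO libraries lay above all 3 WT libraries in both oxygen conditions, but the differences of 0.53 ± 0.21 (adjusted p = 0.0524) and 0.46 ± 0.21 (adjusted p = 0.0882) were not called. Those 2 values sat at the edge of the threshold. They passed with the neighbours' median taken out (0.75 and 0.67, adjusted p = 0.0107 and 0.0197) and in fits of the 6 libraries alone (adjusted p = 0.00338 and 0.00147). The normoxia value also passed in DESeq2 (adjusted p = 0.0283) and without any of 5 single libraries (WT normoxia fructose 3, WT hypoxia fructose 3, KO normoxia glucose 3, KO normoxia fructose 3 or KO hypoxia fructose 2), at adjusted p of 0.0194 to 0.0492. The hypoxia value passed without WT normoxia fructose 3 (adjusted p = 0.0382).

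Tkfc was not called between the genotypes with glucose and was called with fructose. The differences were 0.03 ± 0.09 (adjusted p = 0.804) in normoxia glucose and 0.11 ± 0.09 (adjusted p = 0.323) in hypoxia glucose. The genotypes overlapped in normoxia glucose, while in hypoxia glucose every KO library lay above every WT library. With fructose they were 0.83 ± 0.09 in normoxia and 0.66 ± 0.09 in hypoxia (adjusted p = 3.22e-08 and 1.31e-06), and every KO library lay above every WT library. Glyctk was not called in any medium (differences of -0.39, 0.06, 0.06 and -0.27, adjusted p = 0.129, 0.838, 0.837 and 0.267). The 50 genes around Glyctk had median differences of 0.29 to 0.36, and with that taken out Glyctk was lower in normoxia glucose (-0.67, adjusted p = 0.0121) and hypoxia fructose (-0.60, adjusted p = 0.0165). Khk differences were -0.62, 0.08, -0.69 and -0.76 with SEs of 0.57 to 0.62, none called (adjusted p = 0.425, 0.925, 0.337 and 0.317).

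**Figure D3:**
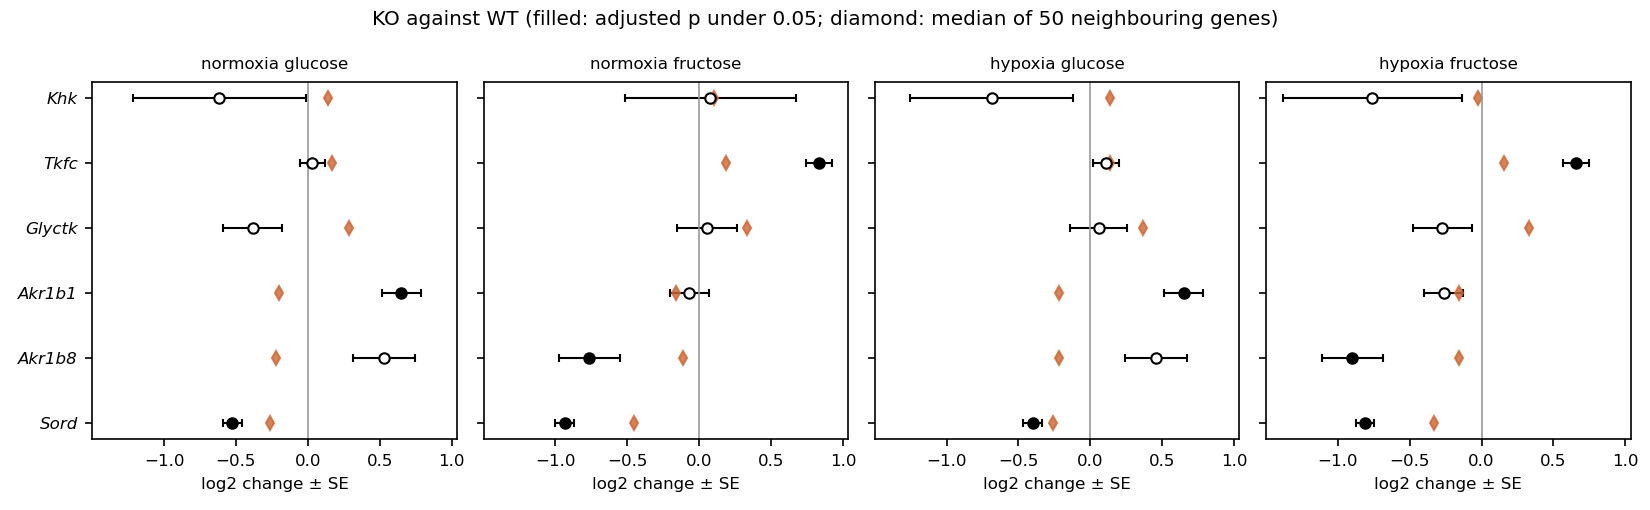
Log2 difference of KO against WT, ± SE derived from the edgeR test, for 6 genes in 4 media, each from 3 libraries a group. Filled points passed an adjusted p of 0.05 and diamonds give the median difference of the 50 tested genes nearest on the chromosome. Sord is filled in all 4 panels, between -0.93 and -0.40, on the same side as its neighbours' medians of -0.45 to -0.26.

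Ratios within a library show how the polyol genes shifted against each other. Per kilobase, Akr1b1 stood at 1.75 to 3.13 times Sord in the 12 WT libraries and at 3.41 to 5.10 times Sord in the 12 KO libraries, with no overlap. The ratio averaged 1.88 ± 0.13 (SD, n = 3) in WT normoxia glucose and 2.59 ± 0.52 in WT normoxia fructose, and 4.26 ± 0.78 and 4.73 ± 0.33 in the matching KO groups. Akr1b8 stood at 0.207 ± 0.007 of Akr1b1 in WT normoxia glucose and 0.566 ± 0.064 in WT normoxia fructose. In KO normoxia those values were 0.190 ± 0.007 and 0.353 ± 0.071. In hypoxia the ratio went from 0.260 ± 0.016 to 0.724 ± 0.029 in WT and from 0.226 ± 0.015 to 0.466 ± 0.057 in KO. Fructose libraries lay above glucose libraries without overlap in all 4 settings. These ratios describe unequal levels and received no test of their own.

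**Figure D4:**
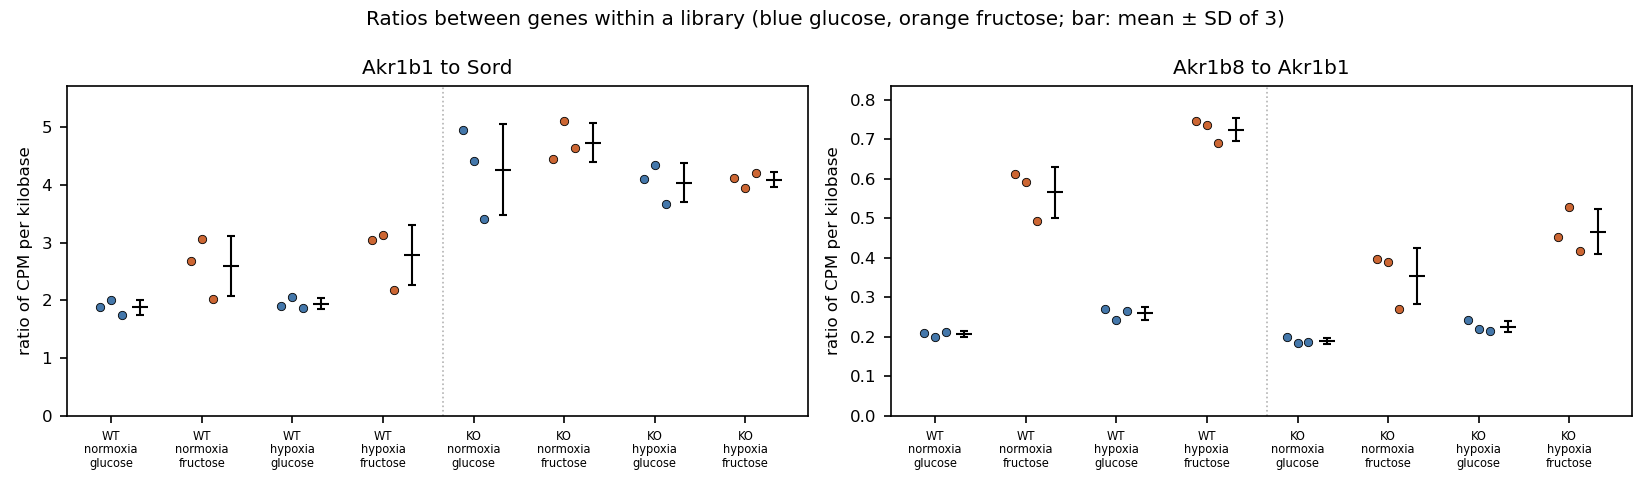
Ratio of CPM per kilobase of Akr1b1 to Sord (left) and of Akr1b8 to Akr1b1 (right) in the 24 libraries, on linear axes from 0. Points are libraries, blue for glucose and orange for fructose, and bars give the mean ± SD of 3. The Akr1b1 to Sord ratio is at most 3.13 in WT and at least 3.41 in KO.

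Between hypoxia and normoxia, Sord was lower in 3 of 4 settings and the other genes gave 3 calls in all. The counts called were 1 of 6 in WT glucose (beside 4.81% of all genes), 2 of 6 in WT fructose (21.2%), 0 of 6 in KO glucose (14%) and 3 of 6 in KO fructose (20%). For KO glucose, 2 genes had an unadjusted p under 0.05 in edgeR's test, Glyctk and Sord, and DESeq2 called 1, Sord (adjusted p = 0.0366). Medians over the 6 genes were -0.06, -0.08, -0.03 and -0.32, against -0.016, -0.012, -0.004 and -0.007 over all genes.

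Sord was lower in hypoxia in WT glucose (-0.29 ± 0.06, adjusted p = 0.00503), WT fructose (-0.39 ± 0.06, adjusted p = 7.50e-05) and KO fructose (-0.26 ± 0.06, adjusted p = 0.0049). In KO glucose the difference was -0.17 ± 0.06 (adjusted p = 0.0787). All 4 pairs of groups were without overlap. In a fit of the 6 libraries alone, the WT glucose value was -0.28 with an adjusted p of 0.0965.

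In KO fructose, Akr1b1 was lower by -0.47 ± 0.14 (adjusted p = 0.0155) and Tkfc by -0.38 ± 0.09 (adjusted p = 0.0033). The Akr1b1 call was lost without KO normoxia fructose 2 (adjusted p = 0.0629), KO hypoxia fructose 1 (adjusted p = 0.0595) or KO hypoxia fructose 3 (adjusted p = 0.0546). In the other 3 settings Akr1b1 differences were -0.25, -0.28 and -0.24 (adjusted p = 0.367, 0.157 and 0.261), and without WT normoxia fructose 3 that of WT fructose was -0.43 with an adjusted p of 0.0173. Tkfc in WT fructose, -0.20 and not called (adjusted p = 0.123), was at -0.29 with an adjusted p of 0.0464 without WT hypoxia fructose 1.

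Glyctk was the one gene called higher in hypoxia. In WT fructose it stood at 5.92, 4.33 and 4.17 CPM in normoxia and at 7.11, 6.33 and 8.09 in hypoxia, without overlap, a difference of 0.58 ± 0.20 (adjusted p = 0.046). This call was at the limit. It was lost with RLE size factors (adjusted p = 0.0505), with no filter on low counts (adjusted p = 0.0757), in a fit of the 6 libraries (adjusted p = 0.0829), and without any of 11 single libraries (WT normoxia glucose 1, WT normoxia fructose 2 or 3, WT hypoxia glucose 2, WT hypoxia fructose 1 or 3, KO normoxia glucose 2, KO normoxia fructose 3, KO hypoxia glucose 1 or 2, KO hypoxia fructose 1), where the adjusted p was 0.0525 to 0.17. In KO glucose, Glyctk was also higher in hypoxia without overlap, by 0.48 ± 0.20, but was not called (adjusted p = 0.126). Its differences in WT glucose and KO fructose were 0.04 and 0.25 (adjusted p = 0.957 and 0.441). Akr1b8 differences between oxygen conditions lay between -0.07 and 0.08 with SEs of 0.21, and its groups overlapped in all 4. Khk differences ranged from -0.79 to 0.32, none called.

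No gene of the 6 was called for a genotype by oxygen difference, beside 0.183% of all genes with glucose and 2.11% with fructose, nor for a sugar by oxygen difference, beside 3.27% in WT and 0.00677% in KO. At an unadjusted threshold of 0.05 in edgeR's test there were 0 in the first 3 of these and 1 in the last, Tkfc, whose difference was -0.31 ± 0.13 (adjusted p = 0.726). DESeq2 called 0 in each. The 95% interval of the sugar by oxygen difference of Akr1b8 in WT ran from -0.65 to 0.62.

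By mean level, the order of the 8 groups differed between genes. Akr1b8 was highest in WT hypoxia fructose (703 ± 159 CPM, SD, n = 3) and WT normoxia fructose (673 ± 195), followed by the KO fructose groups (396 ± 87.1 and 377 ± 63.4), the KO glucose groups (192 ± 18.6 and 191 ± 31.2) and the WT glucose groups (139.6 ± 8.29 and 132 ± 4.49). Within each of these pairs the libraries overlapped, and WT normoxia fructose also overlapped with KO normoxia fructose and KO hypoxia fructose. Sord was highest in WT normoxia fructose (391 ± 19.97 CPM) and lowest in KO hypoxia fructose (171 ± 13.2). Neighbours in its order overlapped for WT hypoxia fructose and WT normoxia glucose, the KO normoxia groups and the KO hypoxia groups, and not elsewhere. Tkfc was highest in KO normoxia fructose (65.2 ± 6.997 CPM) and lowest in WT hypoxia fructose (31.9 ± 3.201), and neighbours in its order overlapped among the first 4 groups and again for WT hypoxia glucose and KO hypoxia fructose, and not elsewhere. Akr1b1 ran from 635 ± 124 CPM in WT normoxia fructose to 292 ± 28.9 in WT hypoxia glucose, and neighbours in its order overlapped down to the sixth group, KO hypoxia fructose. Neighbours in the order of Khk and of Glyctk overlapped throughout.

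With each genotype's mean taken out, log2 CPM of Akr1b1 correlated over the 24 libraries with Akr1b8 at 0.81 and with Sord at 0.81, and Akr1b8 with Tkfc at -0.81. Among 9894 other genes, those most like Akr1b8 were Sqstm1 (r = 0.97), which encodes the autophagy adaptor p62, Hspb8 (0.97), a small heat shock protein gene, and Riok3 (0.97). Akr1b1 was most like Abca9 (0.96), Prmt3 (0.96) and Erlin1 (0.95). The nearest to Sord were Smpd3 (0.92), Pomgnt1 (0.91) and Mlx (0.90), to Tkfc they were Tdrkh (0.95), Ccdc34 (0.95) and Tpgs2 (0.94), and to Glyctk Ccnd3 (0.81), Prkcdbp (0.80) and Ralb (0.80). With the genotype means left in, Sord correlated with Smpd3 at -0.01, with Pomgnt1 at 0.41 and with Mlx at -0.43. Akr1b8 with Hspb8 and Tkfc with Ccdc34 then stood at 0.53 each, and the other pairs with these most alike genes at 0.71 to 0.97. All these correlations share library, depth and the sugar contrast. Those with the means taken out describe likeness within the genotypes in these samples.

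Of the genes around the route into and out of fructose, 11 of 16 listed were tested. Slc2a5, the fructose transporter gene, lay at 0.372 to 2.67 CPM in WT and at 14.1 to 35.7 in KO, and was higher in KO in all 4 media, by 4.09 to 4.92. With fructose it was higher in WT normoxia (1.83 ± 0.32), WT hypoxia (1.26 ± 0.32) and KO normoxia (1.06 ± 0.20, adjusted p = 0.00452), and 0.62 ± 0.20 in KO hypoxia was not called (adjusted p = 0.0794). The other genes that moved one way in all 4 KO against WT comparisons were Mpi, which links mannose and fructose phosphates and was higher (0.32 to 0.91), Hk1 (-1.002 to -0.43), Slc2a8, another hexose transporter gene (-2.09 to -1.51), and Gk, glycerol kinase (-6.58 to -4.87, with 61 to 100 counts in WT libraries and 0 to 4 in KO). Beside these, 46.4% to 54.5% of all genes tested were called in each single KO against WT comparison. The share of all genes called one way in all 4 comparisons of a kind was not counted, here or below. For fructose against glucose, 7 of the 11 were called in WT normoxia (5 higher, 2 lower), beside 37.9% of all genes, and 6 in WT hypoxia (4 higher, 2 lower), beside 45.5%. In KO normoxia 3 were called (all higher), beside 1.79%, and in KO hypoxia 0, beside 5.42%. For KO hypoxia, 4 genes had an unadjusted p under 0.05 in edgeR's test, Hk1, Hk2, Mpi and Slc2a5, and DESeq2 called 2, Hk2 and Slc2a5. In the same order the list's medians were 0.25, 0.11, 0.21 and 0.08, against 0.02, 0.01, 0.00 and 0.00 for all genes. Hk2, a hexokinase that can also phosphorylate fructose, was higher with fructose in WT (1.22 ± 0.10 and 1.33 ± 0.10), while 0.02 ± 0.10 and 0.33 ± 0.10 in KO were not called (adjusted p = 0.98 and 0.0506). Its responses differed between genotypes by -1.206 and -0.996 (adjusted p = 1.75e-06 and 9.24e-06). In hypoxia, Hk2 (1.46 to 1.77), Hk1 (0.29 to 0.86), Aldoa (1.20 to 1.57), Aldoc (1.86 to 3.23) and Tpi1 (1.91 to 2.99), genes of glycolysis, were higher in all 4 settings. In each single oxygen comparison, 4.81% to 21.2% of all genes tested were called.

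Among 7 other aldo-keto reductase genes tested, 4 and 5 were called between KO and WT with glucose (normoxia, then hypoxia), beside 46.4% and 48.4% of all genes, and 3 and 3 with fructose, beside 53.6% and 54.5%. Akr1c12 was higher in all 4 (2.19 to 3.02). Akr1a1, which reduces glucuronate and other aldehydes, was higher in KO with glucose (0.42 ± 0.11 and 0.50 ± 0.11). With fructose in WT hypoxia 4 of 7 were called, beside 45.5% of all genes, Akr1a1 higher (0.26 ± 0.11, adjusted p = 0.0449) and 3 lower. Counts of this list in the other sugar settings are not given here, nor are Akr1a1 differences between genotypes with fructose. In the glucuronate and xylulose route, 3 genes were tested. Dcxr, which converts xylulose to xylitol, had 2 to 15 counts in WT libraries and 0 in 10 of 12 KO libraries, with at most 2, and was called lower in KO in all 4 media. Xylb, xylulose kinase, was higher in hypoxia in all 4 settings (0.67 to 0.82) and higher with fructose in WT (0.79 ± 0.16 and 0.78 ± 0.15). In KO its sugar differences were 0.04 and -0.05, and the genotypes' responses differed by -0.75 and -0.83 (adjusted p = 0.0222 and 0.00688).

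Akr1b1 is known as a target of the tonicity factor encoded by Nfat5, and 3 osmolyte and tonicity genes were tested. Nfat5 was higher with fructose in WT (0.39 ± 0.13 and 0.54 ± 0.13, adjusted p = 0.0253 and 0.00218), and 0.00 ± 0.13 and 0.20 ± 0.13 in KO were not called. Hspa4l, a tonicity-induced chaperone gene, was higher with fructose in all 4 settings (0.48 to 1.04) and higher in KO in all 4 media (2.13 to 2.35). Slc6a6, the taurine transporter gene, was lower with fructose in WT (-0.34 ± 0.07 and -0.20 ± 0.07, adjusted p = 0.000742 and 0.0289). The genotype by sugar differences of these 3 genes lay between -0.39 and 0.28 (adjusted p of 0.0598 to 0.901). Slc5a3 has no row in the table. Any part of the tonicity factor in the Akr1b1 values was not tested.

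The human relative AKR1B10 is known as a target of NRF2, the oxidant-response factor, and 7 NRF2 target genes were tested. With fructose in WT, 6 of 7 were higher in normoxia, beside 37.9% of all genes called, and the same 6 in hypoxia, beside 45.5%, with list medians of 0.83 and 1.02. In KO, 1 of 7 was higher in normoxia, beside 1.79%, and 2 were higher and 1 lower in hypoxia, beside 5.42%, with medians of 0.07 and 0.11. Nqo1, a quinone reductase gene, was called in all 4 settings (2.37 ± 0.25 and 2.12 ± 0.25 in WT, 1.99 ± 0.25 and 1.13 ± 0.25 in KO). Its genotype by sugar difference was -0.38 ± 0.34 in normoxia and -0.995 ± 0.345 in hypoxia (adjusted p = 0.498 and 0.0423). Hmox1, heme oxygenase, was higher with fructose in WT (0.83 ± 0.10 and 0.90 ± 0.10), and its 0.07 and 0.11 in KO were not called. Srxn1, sulfiredoxin, had 49 to 228 counts in WT libraries and 0 in all 12 KO libraries. It could therefore not be called between the sugars in KO, though it is one of the 7 in the KO counts and medians above. Gclc, of glutathione synthesis, was higher in hypoxia in all 4 settings (0.52 to 0.87). Any part of NRF2 in the Akr1b8 values was not tested.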

How the data were processed

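The authors deposited a table of unnormalized whole-number counts with gene models on Rnor_6.0. Reads were aligned with HISAT2, per the submitters' processing notes, which also name DESeq2. The sources used here do not give versions, the read counter or the use of strand. Overlapping, antisense and near-identical genes may therefore share reads. A column whose name holds an extra hyphen was read as sample 3 of WT normoxia glucose. In 5 lines the content was empty, and those are not used here. No 2 samples of a group were duplicates (chi-square per gene between 6.26 and 26.7).

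filterByExpr (minimum count 10, minimum total 15) chose the genes tested. One robust quasi-likelihood model of 8 group means over 24 TMM-scaled libraries was fitted with edgeR 4.0.16 (R 4.3.3), with 16 residual degrees of freedom. Interactions subtract the second response from the first (KO minus WT, hypoxia minus normoxia). CPM is a count over the TMM-scaled library total, and values per kilobase divide it by the deposited gene length. Adjusted p is Benjamini-Hochberg over 14770 genes. The quasi-likelihood test gives no SE, so the SE is the absolute log2 difference divided by the square root of F. The 95% intervals were built on that SE. The procedure was tested on simulated data.

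The 7 genes, the 52 others and the markers were listed with earlier results of these data known. All 7 were to be named, with Pfkfb3, the list genes that passed in all 4 comparisons of a kind in the same direction, Slc2a5, Nfat5, Slc5a3, Slc6a6, Akr1a1, Dcxr and Hk2, and the 3 genes most correlated with each gene of mean log2 CPM of at least 1. One further gene of that rule is not reported here. Xylb and Hmox1 values beyond that rule, and Akr1b1-ps2, Akr1b7, Srxn1 counts, the single marker genes given with values and the ratios, were chosen after values were seen. Alternatives were RLE size factors, DESeq2 1.42.0, no filter, the replicate number as a block, each library left out, the 6 libraries of a comparison alone, and an offset for the 50 neighbouring genes. In fructose against glucose in WT normoxia, the same-numbered samples correlated over 0.1 in all 3 pairs, and the block there changed no call of these genes.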

Additional observations from a re-analysis of the deposited data

Results flagged for a closer look

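For 4 genes the response to fructose in KO differed from that in WT by a test of the difference itself, in both oxygen conditions, 8 results in all. The KO response minus the WT response was -1.29 in normoxia and -1.36 in hypoxia for Akr1b8, -0.72 and -0.91 for Akr1b1, -0.41 and -0.41 for Sord, and 0.80 and 0.55 for Tkfc, on the log2 scale. Groups of 3 libraries are too small to single out one library by its distance from the others.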

How the results depend on the processing

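Of 108 results for the 6 genes, 34 were called, and none changed direction while called. Over the same 18 comparisons, the share of all genes tested that was called ran from 0.00677% to 54.5%. All 34 were kept by DESeq2 (2 gained) and by the replicate block (6 gained), 33 by RLE size factors and 33 with no filter. Fits of 6 libraries kept 22 of 26 (2 gained), and the neighbour offset 9 of 10 (4 gained). The calls lost, or gained otherwise than by the block, stand beside the values above, and causes were not tested.

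Samples share a number across groups. Same-numbered samples correlated at -0.0339 to 0.279 over 36 pairs, with 14 over 0.1. All 3 pairs were over 0.1 in 1 of 12 comparisons. The main fit did not pair samples by number in any comparison, and the replicate block was run only as an alternative. As a hint of pairing from the data and not the design, 56 of 72 samples over the 12 comparisons correlated best with their own number. Every sample did so in 5 comparisons, all 4 of the sugars and KO against WT in hypoxia fructose. Sample 3 was the lowest library of its group for Akr1b8 in 8 of 8 groups and for Akr1b1 in 6 of 8. The replicate block gained calls for Akr1b8 between genotypes with glucose (adjusted p = 0.00233 and 0.00556), Akr1b1 between genotypes in hypoxia fructose (0.0124), and, between oxygen conditions, Akr1b1 in WT fructose (0.012) and KO glucose (0.0419) and Sord in KO glucose (0.0441). It raised the count of all genes called to 571 and 1543 for sugar in KO normoxia and hypoxia (from 265 and 801), 1523 and 3116 for oxygen in WT and KO glucose (from 711 and 2072), 95 and 972 for genotype by oxygen with glucose and fructose (from 27 and 312), and 1196 and 15 for sugar by oxygen in WT and KO (from 483 and 1).

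DESeq2 gave 415 for sugar in KO normoxia, 50 and 549 for genotype by oxygen, and 781 and 22 for sugar by oxygen in WT and KO. The fit of 6 libraries gave 366 for oxygen in WT glucose. With 1 library left out, the counts ranged from 145 to 308 and 455 to 905 for sugar in KO normoxia and hypoxia, 1275 to 2245 for oxygen in KO glucose, 12 to 30 and 162 to 352 for genotype by oxygen, and 266 to 504 and 1 to 6 for sugar by oxygen. Khk had 4 to 26 counts in a library, with sugar and genotype SEs of 0.57 to 0.62.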
